A study of Sus scrofa with 10 samples.

Results

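The genes described are 8 markers of haemoglobin synthesis and of the red cell lineage: HBB, HBM, AHSP, ALAS2, SLC4A1, EPB42, KLF1 and HEMGN. They were chosen by symbol, and all 8 were found among the 25880 genes of the deposited table. The table comes from RNA-seq of the Northeast Min pig, a domestic breed, at 60 days of age. Each of 9 tissues gave 1 library of total RNA: spleen, lung, heart, liver, kidney, ovary, subcutaneous adipose tissue and a pair of skeletal muscles, psoas major and longissimus dorsi. A further library is labelled as a pool of spleen, lung, heart, liver, kidney, ovary and muscle. The oocyte genes ZP3 and DDX4, at 171 and 36.8 FPKM in ovary, were only at 0.0924 and 0.104 in it, so these markers go against the label for ovary, and their part in the pool's values was not tested. No treatment or genotype is labelled, and the labels do not say how many animals were used or whether blood was washed out of the organs. Each tissue has 1 library, so no level has an error, no p-value is given, and whether neighbouring tissues in an order differ beyond animal-to-animal spread is not known. The values are read as FPKM (fragments scaled to transcript length and to library size), which allows levels of genes of different length to be compared.

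Red cells are made from nucleated erythroid precursors, which shut down other genes, fill with haemoglobin and then lose the nucleus. The youngest circulating red cells, the reticulocytes, still hold RNA, so a tissue filled with blood can yield haemoglobin transcripts without making red cells. Genes of the precursor stage, such as the transcription factor KLF1, are used mainly in nucleated cells. The spleen both stores and clears red cells, and in some mammals it can also produce them. In bulk tissue, fewer cells of a type and less RNA per cell cannot be told apart.

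On the pig assembly Sscrofa11.1, HBB, the beta chain of adult haemoglobin, is gene ENSSSCG00000014725 (chromosome 9, 4800293 to 4801945). HBM, a globin of the alpha cluster, is ENSSSCG00000007977 (chromosome 3, 41489251 to 41490114). AHSP, the chaperone that stabilises free alpha globin, is ENSSSCG00000037878 (chromosome 3, 17058691 to 17060483). ALAS2, the erythroid enzyme of the first step of haem synthesis, is ENSSSCG00000012347 (chromosome X, 47871459 to 47896038). SLC4A1, the band 3 anion exchanger of the red cell membrane, is ENSSSCG00000017358 (chromosome 12, 18957776 to 18978130). EPB42, the membrane skeleton protein 4.2, is ENSSSCG00000004714 (chromosome 1, 128231851 to 128255893). KLF1, a transcription factor of erythroid genes, is ENSSSCG00000013730 (chromosome 2, 66144767 to 66148517). HEMGN, a nuclear protein of haematopoietic cells, is taken here as ENSSSCG00000005371 (chromosome 1, 239789133 to 239842595).

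Several of these assignments carry a limit. The model taken as HEMGN spans the RefSeq gene HEMGN, but the table of identifiers names it TRMO, a tRNA-modifying enzyme whose RefSeq gene lies beside it. The same model shares 534 bases with the RefSeq gene ANP32B and 178 with the model of NANS on the opposite strand. The EPB42 model shares 2783 bases with the RefSeq gene CCNDBP1 and 803 with the model of CCNDBP1 on the opposite strand. Strand use in counting is not given in the sources used here. Low values of either gene may therefore hold reads of a neighbour, which was not tested. All 1653 bases of the HBB model lie within another model on the opposite strand, ENSSSCG00000038268, which is listed at 0 in all 10 libraries. The SLC4A1 model also overlaps a RefSeq long non-coding RNA, and HBM lies inside the RefSeq span of NPRL3.

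The libraries carried the marks of their labelled tissues: each of 15 matched identity genes, such as SFTPC for lung and TLX1 for spleen, was highest in the tissue it marks. The sum of FPKM per library lay between 292495 (kidney) and 369254 (longissimus dorsi). Depth is not stated. As a rough guide, the most common low value of FPKM times gene span was sought among short genes, within a window set beforehand. It lay at 0.0435 to 0.0855 per kilobase, with 23 to 69 genes at the peak of each library. If it stands for 1 fragment, which was not tested, the lowest levels rest on few fragments. The span includes introns and the window limits the answer, so the depth remains uncertain.

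All 8 genes were highest in spleen. Of the 15637 genes that reached 1 FPKM in some tissue, 18.9% were highest in spleen. By a difference of at least 2-fold in FPKM + 1 over each of the 8 other tissues, 6 of the 8 genes passed, against 3.51% of all genes. With 5 added in place of 1, KLF1 and HEMGN no longer passed (0.66 and 0.91 on the log2 scale), which left 4. The share of all genes with 5 added was not computed. Against lung alone, the tissue next in HBB, 7 of 8 passed 2-fold, against 7.57% of all genes. The exceptions to the first rule were SLC4A1, which was almost as high in kidney, and EPB42, the gene with the lowest spleen level. HBB alone reached 1 FPKM in all 9 tissues.

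**Figure D1:**
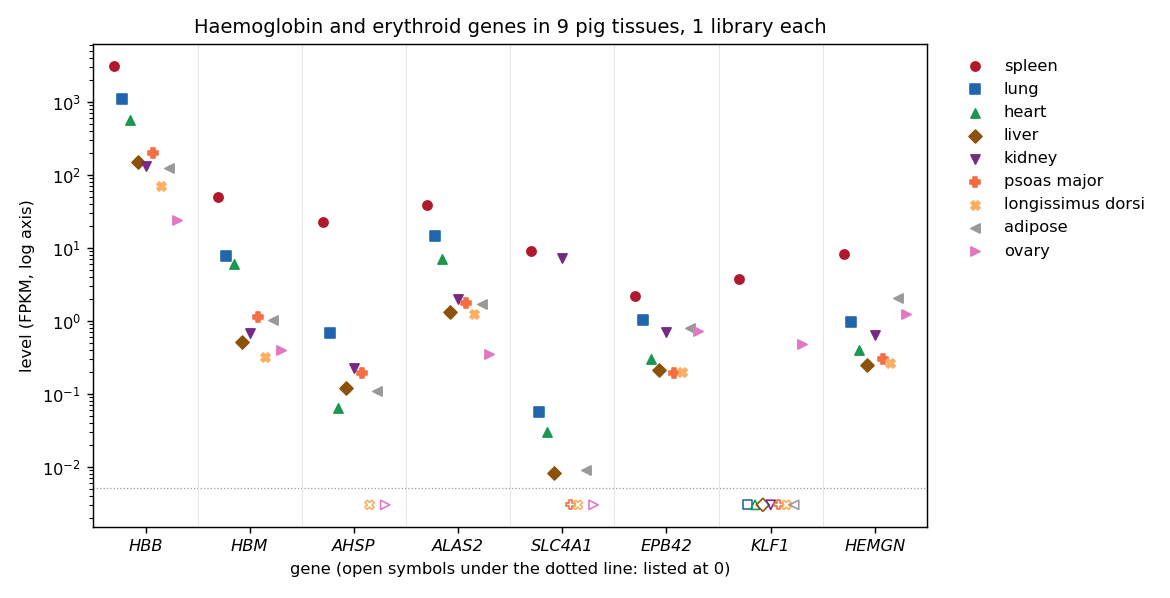
Levels of the 8 genes in 9 pig tissues, in FPKM on a log axis, 1 point per library; open symbols under the dotted line are values listed at 0. Spleen is the highest point of every gene, kidney is close to it for SLC4A1 alone, and KLF1 is above 0 in spleen and ovary only.

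HBB was by far the most abundant of the 8. It stood at 3102 FPKM in spleen, 1104 in lung, 566 in heart, 198 in psoas major, 151 in liver, 132 in kidney, 124 in adipose tissue, 70.1 in longissimus dorsi and 24.3 in ovary. Spleen was 2.81-fold above lung and 5.48-fold above heart, and the remaining tissues lay far below these. HBB was the 3rd most abundant gene of the spleen library, with 0.934% of all FPKM, and ranked 12th in lung, 78th in heart and 2444th in ovary. The muscles differed, with psoas major above longissimus dorsi.

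Both globin clusters held another abundant gene model with no symbol. On chromosome 3, ENSSSCG00000007978 (41482260 to 41487800) lies beside HBM and covers the RefSeq genes LOC110259958 and LOC100737768. It stood at 1637 FPKM in spleen, 472 in lung, 279.5 in heart, 93.4 in adipose tissue, 83.3 in kidney, 81.3 in psoas major, 65.3 in liver, 39.1 in longissimus dorsi and 13.8 in ovary. On chromosome 9, ENSSSCG00000014727 (4808588 to 4809801) lies between HBB and HBE1 and matches LOC100515788. It stood at 479.8 FPKM in spleen, 204 in lung and 112 in heart, and between 4.21 (ovary) and 33.4 (psoas major) in the other tissues. These models were picked by position after their values were seen. Neighbouring globin genes can be alike in sequence, and how reads that match several of them were assigned is not given in the sources used here. With HBB and HBM, they made up 1.59% of the spleen library, 0.594% of lung, 0.293% of heart and 0.0139% of ovary.

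The embryonic globins were near 0. HBE1, an embryonic beta-type chain, was listed at 0.509 FPKM in spleen and 0.192 and 0.1995 in lung and heart, and at 0 in the 6 other tissues. HBZ, an embryonic alpha-type chain, was at 0.287 in spleen, 0.0730 in liver and 0 elsewhere. Neither reached 1 FPKM in any tissue. Of 9 globins on the list only 3 were matched, HBE1, HBZ and HBQ1. HBA, HBA1, HBA2, HBD, HBG1 and HBG2 had no row by name. Among the 3 matched, HBQ1, a minor globin of the alpha cluster, alone reached 1 FPKM. Its highest level was in kidney (5.17), followed by ovary (4.46) and spleen (2.93).

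HBM showed the same leading tissues as HBB at a far lower level. It stood at 49.2 FPKM in spleen, 7.71 in lung, 6.07 in heart, 1.14 in psoas major, 1.01 in adipose tissue, 0.675 in kidney, 0.511 in liver, 0.398 in ovary and 0.315 in longissimus dorsi. Spleen exceeded lung 6.38-fold, more than for HBB.

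ALAS2 was at 38.5 FPKM in spleen, 14.4 in lung, 6.97 in heart, 1.98 in kidney, 1.73 in psoas major, 1.72 in adipose tissue, 1.34 in liver, 1.25 in longissimus dorsi and 0.347 in ovary. Its excess in spleen, 2.67-fold over lung and 5.52-fold over heart, was close to that of HBB. ALAS1, the isoform that supplies haem in other cells, had another order: it was highest in liver (47.4) and heart (24.2) and lowest in spleen (4.67). In spleen, lung and no other tissue the erythroid isoform exceeded ALAS1 (12.1 in lung).

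AHSP was nearly restricted to spleen. It stood at 22.7 FPKM there, 0.674 in lung, 0.223 in kidney, 0.193 in psoas major, 0.120 in liver, 0.108 in adipose tissue and 0.0638 in heart, and was listed at 0 in longissimus dorsi and ovary. Spleen was 33.7-fold above lung. Heart, with more HBB than kidney, liver or psoas major, had less AHSP than each of them, though all these values rest on few fragments.

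KLF1 was listed at 3.68 FPKM in spleen and 0.486 in ovary and at 0 in the 7 other tissues, lung and heart included. The ovary library, in contrast, had the lowest HBB level of all and AHSP at 0. GATA1, a zinc finger factor of erythroid, megakaryocyte and mast cells, stood at 4.77 in spleen, 0.5002 in lung and 0.0839 in ovary.

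HEMGN, with the limit on its gene model, stood at 8.17 FPKM in spleen, 2.02 in adipose tissue, 1.24 in ovary, 0.970 in lung, 0.628 in kidney, 0.398 in heart, 0.303 in psoas major, 0.262 in longissimus dorsi and 0.247 in liver. Adipose tissue and ovary ranked above lung and heart, unlike for HBB. EPB42 was at 2.16 in spleen, 1.03 in lung, 0.807 in adipose tissue, 0.722 in ovary, 0.705 in kidney, 0.301 in heart, 0.209 in liver, 0.199 in longissimus dorsi and 0.191 in psoas major. Its highest and lowest levels were 11.3-fold apart, the narrowest range among the genes with no value of 0.

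SLC4A1 was the gene with a pair of high tissues. It stood at 9.08 FPKM in spleen and 7.21 in kidney, a ratio of 1.26, but at 0.0567 in lung, 0.0303 in heart, 0.00905 in adipose tissue and 0.00810 in liver, and was listed at 0 in both muscles and in ovary. Spleen was 160-fold above lung, from a lung value of few fragments. Band 3 is also known as the basolateral anion exchanger of acid-secreting intercalated cells in the collecting duct of the kidney. All 10 genes of an intercalated cell list were highest in kidney, against 12.8% of all genes, with a summed level of 478 FPKM there against 3.94 in spleen. Among them the proton pump subunit genes ATP6V1B1 and ATP6V0A4 stood at 294 and 26.5 in kidney, CA12, a carbonic anhydrase, at 93.7, AQP6 at 17.5 and SLC4A9, another anion exchanger, at 14.7. ATP6V0A4 and DMRT2 were nearly as high in adipose tissue (25.7 and 2.12) as in kidney (26.5 and 2.13). FOXI1, a regulator of these cells, was at 2.50 in kidney and 0 in spleen. HBB, AHSP and RHCE, the last encoding a protein of the Rh complex, were low in kidney (132, 0.223 and 0.0288) against spleen (3102, 22.7 and 6.11). The part of these cells in the kidney level was not tested.

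**Figure D2:**
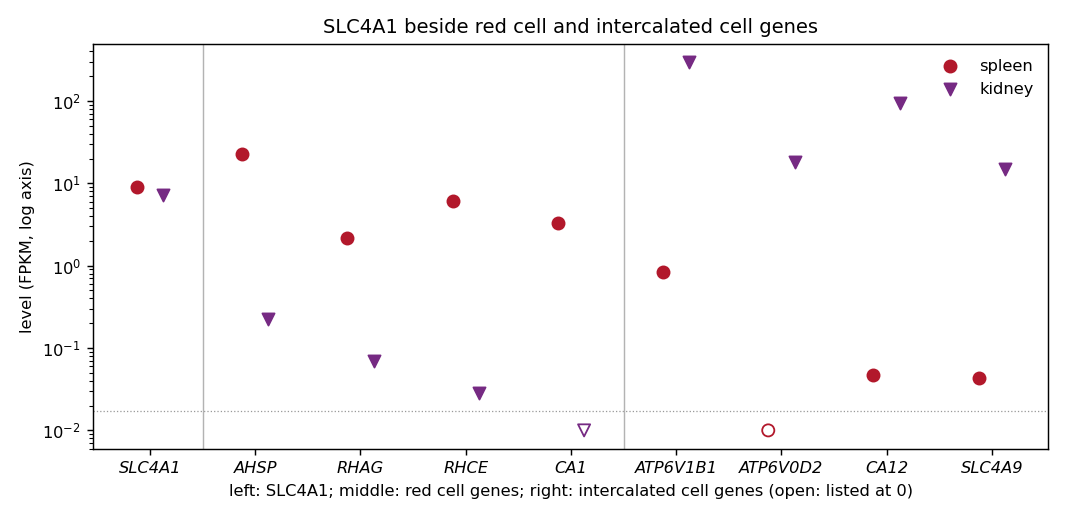
Levels of SLC4A1, of 4 red cell genes and of 4 intercalated cell genes in spleen and kidney, in FPKM on a log axis, 1 library each; open symbols are values listed at 0. SLC4A1 is similar in both (9.08 and 7.21), the red cell genes are high in spleen alone and the intercalated cell genes in kidney alone.

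To compare the genes at a like amount of HBB, each gene was divided by HBB of the same library. Nucleated precursors fill with haemoglobin too, so HBB does not measure carried blood alone, and other cells can express a divided gene. The ratio therefore cannot tell blood carried in a tissue from production of red cells. Such a ratio does not change when a whole library is multiplied by a factor, though quantile normalisation can change it. It is given as FPKM per 1000 FPKM of HBB. HBB was highest in spleen, so dividing by it lowers the spleen value of any gene relative to the other tissues. The shares of all genes given for the ratio are thereby small, and a gene nearly restricted to spleen passes easily.

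The genes fell into different patterns. The unnamed alpha-cluster model was steady, from 411 (psoas major) to 755 (adipose tissue) with 528 in spleen, a range of 1.84-fold. ALAS2 ran from 8.72 in psoas major to 17.8 in longissimus dorsi, a range of 2.04-fold, while HBB itself differed 127-fold between spleen and ovary. For ALAS2, spleen (12.4), lung (13.1) and heart (12.3) were nearly equal. The unnamed beta-cluster model ran from 92.0 in adipose tissue to 198 in heart, with 155 in spleen. For these transcripts the spleen had about as much per HBB as tissues with less HBB.

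AHSP departed from that. Its ratio was 7.32 in spleen and 0.610 in lung, 11.99-fold apart, and 0.113 in heart. The highest ratio elsewhere was 1.69 in kidney, from an AHSP level of 0.223 FPKM. AHSP was the sole gene of the other 7 with its highest ratio in spleen, where 0.537% of all genes had theirs, a share kept low by the divisor. After quantile normalisation it no longer had, and 0 of the 7 genes did.

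SLC4A1 had a ratio of 2.93 in spleen against 0.0513 in lung, 0.0535 in heart, 0.0535 in liver and 0.0732 in adipose tissue. Those 4 tissues had close ratios from SLC4A1 levels of few fragments, and the kidney value of 54.5 stood apart. KLF1 had 1.19 in spleen and 0 in 7 tissues. In ovary KLF1 had 19.9, HEMGN 51.1, EPB42 29.6 and HBM 16.3, where the HBB divisor was only 24.3 FPKM. HBM was at 15.9 in spleen, 10.7 in heart, 8.16 in adipose tissue and 6.98 in lung. It was lowest in liver, at 3.37.

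The ratio was then compared among spleen, lung and heart, which had the highest HBB levels. HBM, AHSP, SLC4A1, KLF1 and HEMGN, 5 of 7 genes, had a higher ratio in spleen than in both lung and heart, as did 5.28% of all genes. ALAS2 and EPB42 did not. With ovary alone left out of the 9 tissues, 3 of 7 genes (HBM, AHSP and KLF1) had their highest ratio in spleen, as did 1.72% of all genes. Both of these selections of tissues were made after the values were seen.

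**Figure D3:**
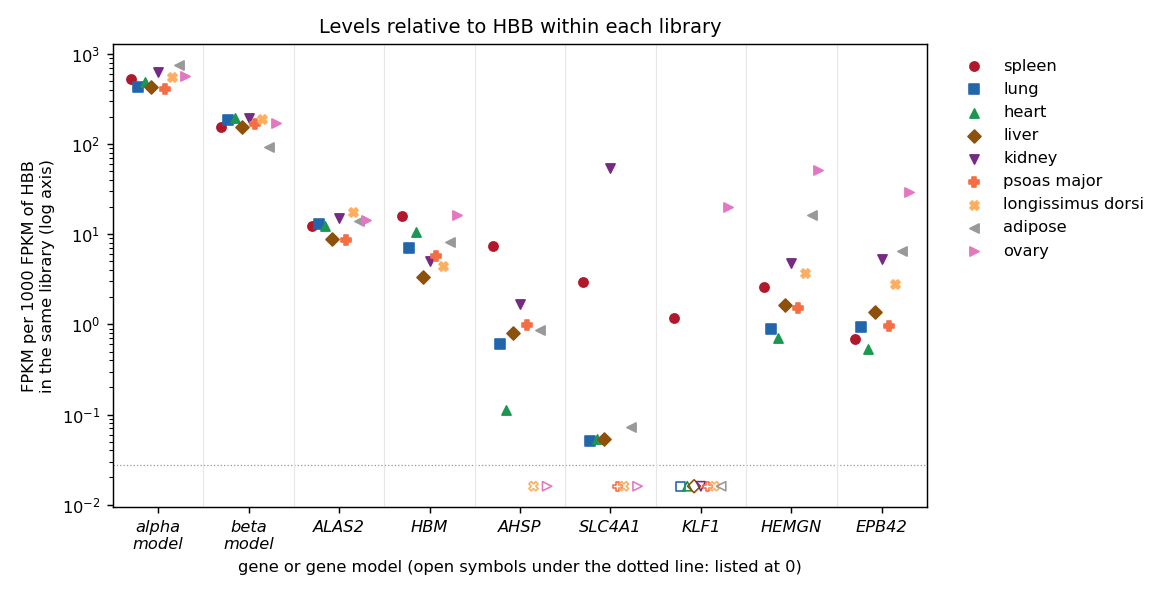
FPKM per 1000 FPKM of HBB in the same library, on a log axis, for 7 genes and the unnamed gene models of the alpha and beta globin clusters, 1 point per tissue; open symbols are values listed at 0. The globin models and ALAS2 form tight groups with spleen inside them, whereas spleen stands above lung and heart for HBM, AHSP, SLC4A1, KLF1 and HEMGN.

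Lists of other red cell genes were read in the same way. Of 85 listed genes, 75 were matched and 71 reached 1 FPKM in some tissue. Spleen was the highest tissue for 26 of these (36.6%, against 18.9% of all genes), and 11 (15.5%, against 3.51%) passed 2-fold over every other tissue. The median difference between spleen and the highest other tissue was -0.33 on the log2(FPKM + 1) scale, against -0.87 for all genes. Among the 11 were the regulators GATA1, LYL1, BCL11A and E2F2, the membrane genes RHAG, RHCE and ERMAP, and the enzyme genes CA1 and GPX1. They are named because they passed, not by a rule set beforehand.

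The membrane list was divided. RHAG and RHCE, which encode proteins of the Rh complex, stood at 2.17 and 6.11 FPKM in spleen and reached at most 0.0921 and 0.371 elsewhere. ERMAP, a blood group antigen gene, was at 2.32 in spleen. In lung, where HBB was at 1104 FPKM, RHAG and RHCE were at 0.0473 and 0.127.

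Membrane genes with uses outside the red cell had other orders. SPTB, beta spectrin, was highest in psoas major (42.2 against 2.78 in spleen), ANK1, ankyrin, in heart (38.4 against 2.41) and TMOD1, tropomodulin, in psoas major (49.4 against 2.29), and these proteins are also known from the muscle membrane and sarcomere. AQP1, a water channel, DMTN, STOM and BSG were highest in kidney, with AQP1 at 376 against 20.7 in spleen. GYPC was highest in heart (15.0). EPB41, protein 4.1, was highest in spleen (28.5), narrowly above lung (23.3). Of 18 membrane genes, 8 were highest in spleen (44.4%, against 18.9% of all genes).

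Among 14 tested regulators 8 were highest in spleen (57.1%, against 18.9% of all genes). LYL1 stood at 35.2 FPKM against 8.35 in lung, E2F2, a cell cycle regulator used in late erythroid divisions, at 6.95 against 2.77, and BCL11A, a repressor of fetal globin genes in human that also acts in B cells, at 9.77 against 2.102 in ovary. EPOR, the erythropoietin receptor, was at 2.54 in spleen and at most 0.963 elsewhere. LDB1 was at 37.2 in spleen, 30.7 in ovary and 5.79 in liver, its lowest tissue. LMO2 and FOXO3 were highest in lung (32.4 and 16.0, against 31.4 and 8.97 in spleen), as were TAL1 and MYB, and KIT and ZFPM1 were highest in ovary (10.2 and 15.3). TRIM58, a late erythroid ubiquitin ligase, was under the filter, at 0.848 in spleen and at most 0.0312 elsewhere.

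Genes of general haem synthesis and iron supply were highest in spleen at near the share of all genes or somewhat above it. Spleen was the highest tissue for 2 of 10 haem synthesis genes (20%) and 2 of 7 iron supply genes (28.6%), against 18.9% of all genes. None of these passed 2-fold, among them the glycine carrier gene SLC25A38 (6.38 in spleen, 5.15 in kidney). ALAD and CPOX were highest in liver (173 and 29.3), UROS in longissimus dorsi (35.7), PPOX, UROD and SLC25A39 in kidney (16.1, 10.1 and 34.7) and ABCB10 in lung (17.3). FECH, which inserts iron into haem, was at 21.6 in heart and 21.0 in spleen. TFRC, the transferrin receptor, was highest in psoas major (67.8 against 14.0 in spleen), TFR2, STEAP3 and NCOA4 in liver (142, 13.8 and 58.5) and the ferritin gene FTH1 in kidney (3047 against 2309). SLC25A37, the mitochondrial iron importer mitoferrin, was at 8.401 in spleen, 7.93 in lung and 2.998 in longissimus dorsi, its lowest tissue.

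Among enzymes, CA1, the red cell carbonic anhydrase, was listed at 3.29 FPKM in spleen, 0.01505 in lung and 0 in the 7 other tissues. BLVRB, a reductase of red cells and liver, stood at 121 in spleen and 73.5 in liver. GPX1 was at 242 in spleen but between 0.636 and 31.2 in the other tissues, and at 4.92 in the pool. That is 0.0203 of its spleen level, against 0.351 for HBB. Its model was named by RefSeq overlap, and whether its spleen value is sound was not tested. PRDX2, abundant in red cells, was even across most tissues (95.5 in spleen, 110.2 in psoas major). CAT, SELENBP1 and PKLR were highest in liver (1022, 252 and 44.8), CA2 in kidney (39.1), and CA3 and BPGM in longissimus dorsi (207 and 18.5). In the list of late maturation genes 3 of 11 were highest in spleen (27.3%, against 18.9% of all genes). They were HMGB2 (122), RIOK3 (44.2) and ACHE (1.48), none by 2-fold. GMPR was highest in heart (98.98), BNIP3L and OPTN in adipose tissue (51.4 and 92.5), FAXDC2 in liver (10.1), and XPO7, UBE2O and MXI1 in ovary (28.8, 12.2 and 14.0).

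**Figure D4:**
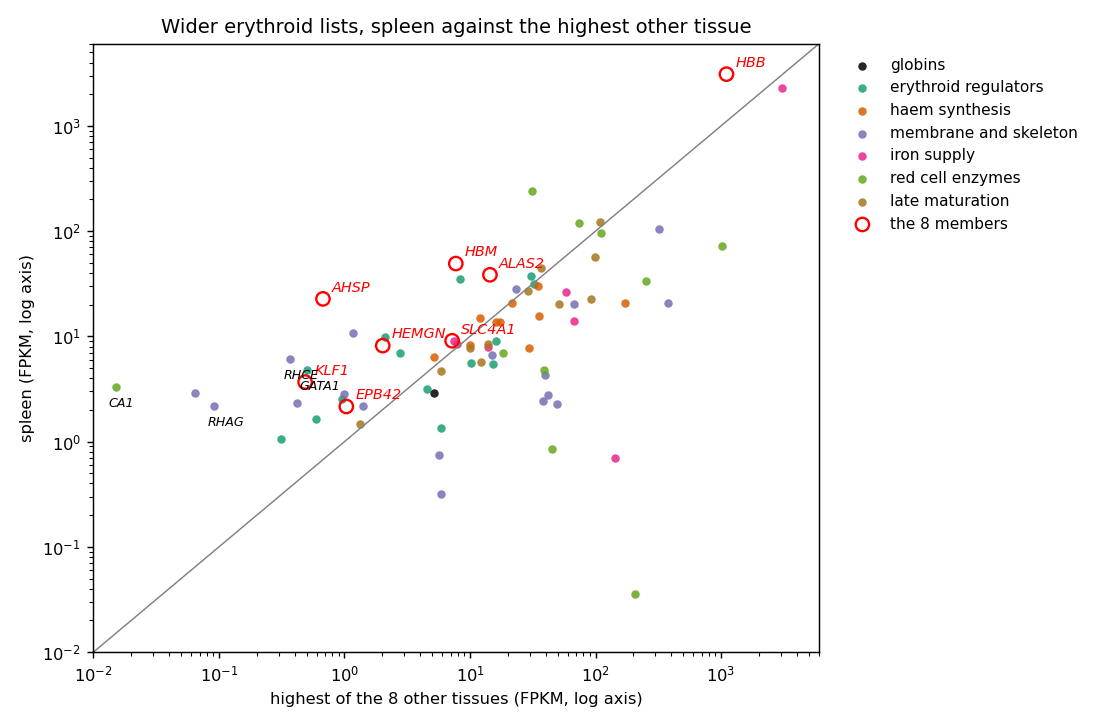
Level in spleen against the highest level among the 8 other tissues, both in FPKM on log axes, for 71 genes of 7 red cell lists and the 8 main genes (red rings); the line marks equal levels. All 8 rings lie above the line, while the list genes fall on both sides, with CA1 farthest to the left.

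Other cells of blood and of the splenic red pulp also had transcripts high in spleen. Of 8 platelet and megakaryocyte genes 6 were highest in spleen (75%, against 18.9% of all genes), each by 2-fold or more (against 3.51%). PPBP, a platelet chemokine, was at 36.5 FPKM in spleen and 11.8 in lung, and TREML1 at 12.3 and 0.228. The integrin gene ITGB3 was at 12.03 in spleen, 4.91 in adipose tissue, its next tissue, and 2.13 in lung. VWF, which endothelium also makes, was highest in lung (75.9 against 13.2 in spleen), from a model that the identifier table names ANO2. The summed platelet list was 99.96 in spleen and 6.33 to 95.8 elsewhere, and GP1BA was at 0 in spleen. GATA1 is shared by megakaryocytes, and their part in its level was not tested.

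Granulocyte and monocyte genes were divided between lung and spleen. Lung was the top tissue for 5 of 11 tested genes and spleen for 4, against 14.9% and 18.9% of all genes, with S100A8 at 62.9 and 31.8, S100A9 at 85.4 and 9.58, S100A12 at 42.8 and 4.83, LYZ at 96.5 and 41.3, CSF3R at 18.8 and 12.8 and FCN1 at 14.9 and 43.6 (lung first). The granule enzyme genes MPO and ELANE stood at 1.34 and 2.999 in spleen against 0.0434 and 1.14 in lung, and the chemokine receptor gene CXCR2 at 6.29 against 1.29, all named after their values were seen. CD14 was highest in liver (85.7) and LTF in ovary (17.3). The summed list stood at 168 in spleen and 342 in lung, with a minimum of 4.49 elsewhere.

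Of 12 genes of red pulp macrophages, which digest aged red cells, 9 were highest in spleen (75%, against 18.9% of all genes). The complement genes C1QA, C1QC and C1QB stood at 1176, 868 and 744 FPKM, the adhesion receptor gene VCAM1 at 486 and SPIC, the transcription factor of these cells, at 48.1. CD163, the haemoglobin scavenger receptor, was highest in lung (165 against 48.9), AXL in ovary (69.4) and HPX in liver (3136). All 8 B and T cell genes were highest in spleen, against the same 18.9%, with a summed level of 309 against at most 69.2 elsewhere. Of 11 proliferation genes 6 were highest in spleen (54.5%, against 18.9%) and 5 in ovary, with sums of 195 and 139. The share of all genes highest in ovary was not computed. Whether dividing cells in spleen were erythroid was not tested.

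Genes with the most similar profile were sought by Pearson's r of log2(FPKM + 1) over the 9 tissues, which share 1 library each. Of 13907 other named genes, the closest to HBB were PSMA2 (r = 0.94), TMEM71 (0.93), CYTIP (0.93), RAP1A (0.92), TMEM273 (0.92), SNAP23 (0.91), LYN (0.90), ZBP1 (0.90), AFAP1L1 (0.90) and TLR2 (0.89). None of these is a red cell gene of the lists, and CYTIP and TLR2 were slightly higher in lung than in spleen. The closest to KLF1 were EPHA5 (0.995), PRND (0.99), COL25A1, AZU1, ERMAP, CHRM4 (each 0.99), TAC1, GLP1R, ADAM3A and MSC (each 0.98). ERMAP is on the membrane list. These 10 share with KLF1 a value above 1 FPKM in spleen and low values elsewhere, a profile set by a single library.

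The pool, which the labels say includes spleen, had a value above 0 for all 8 genes. HBB stood at 1088 FPKM in the pool, 0.351 of the spleen level, ALAS2 at 13.8 (0.358), HBM at 14.8 (0.300) and HEMGN at 2.87 (0.352). The genes nearest to spleen-only were present at a smaller fraction of the spleen level, with AHSP at 3.78 (0.167) and KLF1 at 0.495 (0.134). SLC4A1, which was high in kidney too, was at 2.32 (0.255). EPB42, with the flattest profile, was at 1.25 (0.578).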

How the data were processed

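RNA-seq gene levels of 9 tissue libraries and 1 pool were used, and each of the 10 columns was matched to its sample by the label. Per the submitters' processing notes, the assembly was Sscrofa11.1 and the tools TopHat2 2.1.0 and StringTie 1.2.2. Their settings, the annotation and any filter: not given in the sources used here. Values, as the authors deposited them, are read as FPKM. The header names no unit, and FPKM was inferred from values that are not whole, from their sums and from StringTie being named.

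Symbols were taken from an Ensembl identifier table (14857 rows) or, where it gave none, from the best reciprocal RefSeq overlap of at least 0.5 of the longer gene (1714 rows). For HEMGN and VWF, absent by name, that overlap was used although the row has another name. Of rows with 1 symbol, the highest mean stood. MB, the myoglobin gene, had no matched row.

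With 1 library per tissue, no test was run. A gene was counted at 1 FPKM in some tissue, folds were taken on FPKM + 1 with a threshold of 2, and shares of all genes give the background. List genes named are the 4 highest in spleen, plus those highest elsewhere at 10 FPKM or more. In the report the genes CA1, RHAG, RHCE, GATA1, E2F2, ERMAP, EPOR and TRIM58, and others outside this rule, were picked after their values were seen. Some listed genes are counted but not reported here by name. The genes and lists were chosen with earlier results of these data known. The fold call was checked on simulated data. Alternatives varied scaling, pseudocount, fold, filter, naming, the divisor of the ratio and the tissues compared. Python 3.11.15, numpy 2.4.6, pandas 2.3.3 and matplotlib 3.10.9 were used.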

Additional observations from a re-analysis of the deposited data

How the results depend on the processing

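Of 66 counts recomputed under an alternative, 58 stayed within 1.5 times, and all 71 recomputed differences between spleen and the highest other tissue kept their sign. Many of these outcomes were fixed in advance. A changed pseudocount or averaged muscles cannot reverse a spleen excess, and summed rows or stricter naming left these differences unchanged. Only rescaling could have reversed them, and the ratio count cannot move when whole libraries are multiplied by a factor. The difference between spleen and the highest other tissue ran from 0.11 to 0.33 for SLC4A1 and from 2.29 to 4.88 for AHSP on the log2 scale. As deposited, the median of all genes lay 0.25 towards spleen against the mean of the other tissues, and median-of-ratios scaling took it to -0.14. At a fold of 5, 2 of the 8 genes and 3 of 71 list genes passed in spleen. A pseudocount of 5 left 4 of the 8 genes, without KLF1 and HEMGN, and 5 list genes past 2-fold. A filter at 5 FPKM left 15 of 59 list genes highest in spleen and 6 past 2-fold, with fewer genes tested. The shares of all genes at this fold, pseudocount and filter were not computed, so these counts have no background. The count of 1 gene (AHSP) with its highest ratio to HBB in spleen became 0 after quantile normalisation, of which the cause was not tested. It became 3 with ovary left out and 5 among spleen, lung and heart, with fewer tissues compared. No paired analysis was possible because each tissue has 1 library and the labels carry no replicate number. Depth limits the lowest values, among them most AHSP and SLC4A1 levels outside spleen and kidney.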

Other observations

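Genes that handle free haemoglobin and haem outside the red cell were highest in liver (HP and HPX), spleen (HMOX1 and SLC40A1) or lung (CD163). CD163 stood at 165 FPKM in lung and 48.9 in spleen. HP, the plasma protein that binds haemoglobin, stood at 2261 FPKM in liver, 30.2 in lung and 2.52 in spleen, and HPX, which binds haem, at 3136 in liver and 0.339 in spleen. HMOX1, which breaks haem down, was at 191 in spleen, 40.6 in lung and 24.1 in liver, and the iron exporter gene SLC40A1 at 244 in spleen and 199 in liver. EPO, the hormone that drives red cell production, was at 0.465 in kidney, its highest tissue, and HAMP, the hormone that limits iron export, at 4.95 in liver and 2.97 in ovary.

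CYGB, cytoglobin of fibroblast-like cells, stood at 33.7 FPKM in adipose tissue, 19.8 in ovary, 9.17 in kidney and 1.76 in spleen. NGB, neuroglobin, was at 0.0656 or less in each of the 9 tissues.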
